A study of Mus musculus with 16 samples.

Results

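Voltage-gated calcium channels, voltage-gated sodium channels and their relatives were examined in the pituitary of *Esr1* mutant and control females. The genes were all protein-coding genes whose mouse symbol marks them as a pore-forming calcium channel subunit (*Cacna1*), a calcium channel auxiliary subunit (*Cacna2d*, *Cacnb*, *Cacng*), a sodium channel α or β subunit (*Scn*), a hyperpolarization-activated pacemaker channel (*Hcn*) or the sodium leak channel *Nalcn*. The rule used symbols and no measured value, but it was chosen with earlier results of these data known. It gave 43 of the 17362 genes listed, and 2 more genes of the annotation that carry such a symbol, *Cacna1s* and *Cacng1*, were not analysed here. Pituitary RNA from 16 females aged 27 weeks was sequenced, with 1 library per mouse and 4 mice in each of 4 groups. Controls carried floxed *Esr1* alleles without Cre (Esr1fl/fl), and mutants were Esr1Nkx2.1-cre females, which lose *Esr1*, the gene for oestrogen receptor alpha, in cells that express or once expressed *Nkx2-1*. Each genotype was fed either standard diet (SD, named chow in the labels) or, for 17 weeks, high-fat diet (HFD), so floxed alleles were shared by all 4 groups. *Nkx2-1* is active in the developing ventral hypothalamus and the posterior lobe of the pituitary, and the Cre line therefore does not target one hormone cell type of the anterior lobe.

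Endocrine cells of the pituitary are electrically excitable. They fire action potentials, and the calcium that enters through voltage-gated channels triggers hormone release. The pore of a calcium channel is a single large α1 subunit. In L-type, P/Q-, N- and R-type channels, α2δ and β subunits bring it to the membrane. These channels open at strong depolarization, whereas T-type channels open near the resting potential. Sodium channel α subunits carry the fast upstroke of the action potential and β subunits set their gating and placement. HCN channels and NALCN pass depolarizing current between action potentials. Several γ subunits act mainly as transmembrane AMPA receptor regulatory proteins (TARPs), which traffic glutamate receptors.

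Values are normalized expression per gene as deposited, which behave as abundance per transcript length, so that levels of different genes can be set side by side. They summed to between 908897 and 1335782 per mouse, of which *Prl*, the prolactin gene of lactotrophs, held 28.8% to 40.6%. In 1457 genes with a single annotated transcript, the worth of 1 read was fitted in each library so as to give whole reads. With it, 81.3% to 93.7% of the low values in a library lay within 0.15 reads of a whole read. The fitted worth was 0.0436 to 0.0687 units for each kilobase of transcript. No equal values above 0 occurred between any pair of mice among the 43 genes. *Esr1* itself ranged from 29.0 to 46.6 (controls, SD), from 23.6 to 43.4 (controls, HFD), from 10.0 to 22.2 (mutants, SD) and from 21.5 to 33.4 (mutants, HFD). Its log2 fold change between mutants and controls averaged over both diets was -0.71 (SE 0.18, adjusted p = 0.028, limma with Benjamini-Hochberg adjustment, where SE is the standard error). Of the 16 libraries, 2 stood apart: in P357, a mutant on SD, and in P392, a control on HFD, 4 of 4 melanotroph markers and 3 of 4 posterior lobe markers (*Nkx2-1*, *Rax* and *Lhx2*) were below all other 14 mice. The remaining one, *Col25a1*, was 13.9 in P357 and 15.3 in P392, within the 6.06 to 18.2 of the others. *Rax*, a posterior lobe gene, was listed at 0 in both and reached 0.834 to 3.43 in the other 14 mice, and *Oacyl*, a melanotroph gene, was 1.61 in P357 and 9.23 in P392 against 28.1 to 91.0 elsewhere. Results are therefore also given without P392 and without both mice. The fit without P357 alone enters only the ranges and counts over single mice left out, and the values of *Scn7a*. *Esr1* was 10.0 in P357, the lowest of all mice, and 39.6 in P392. Which cells of the pituitary had less *Esr1* was not tested.

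**Figure D1:**
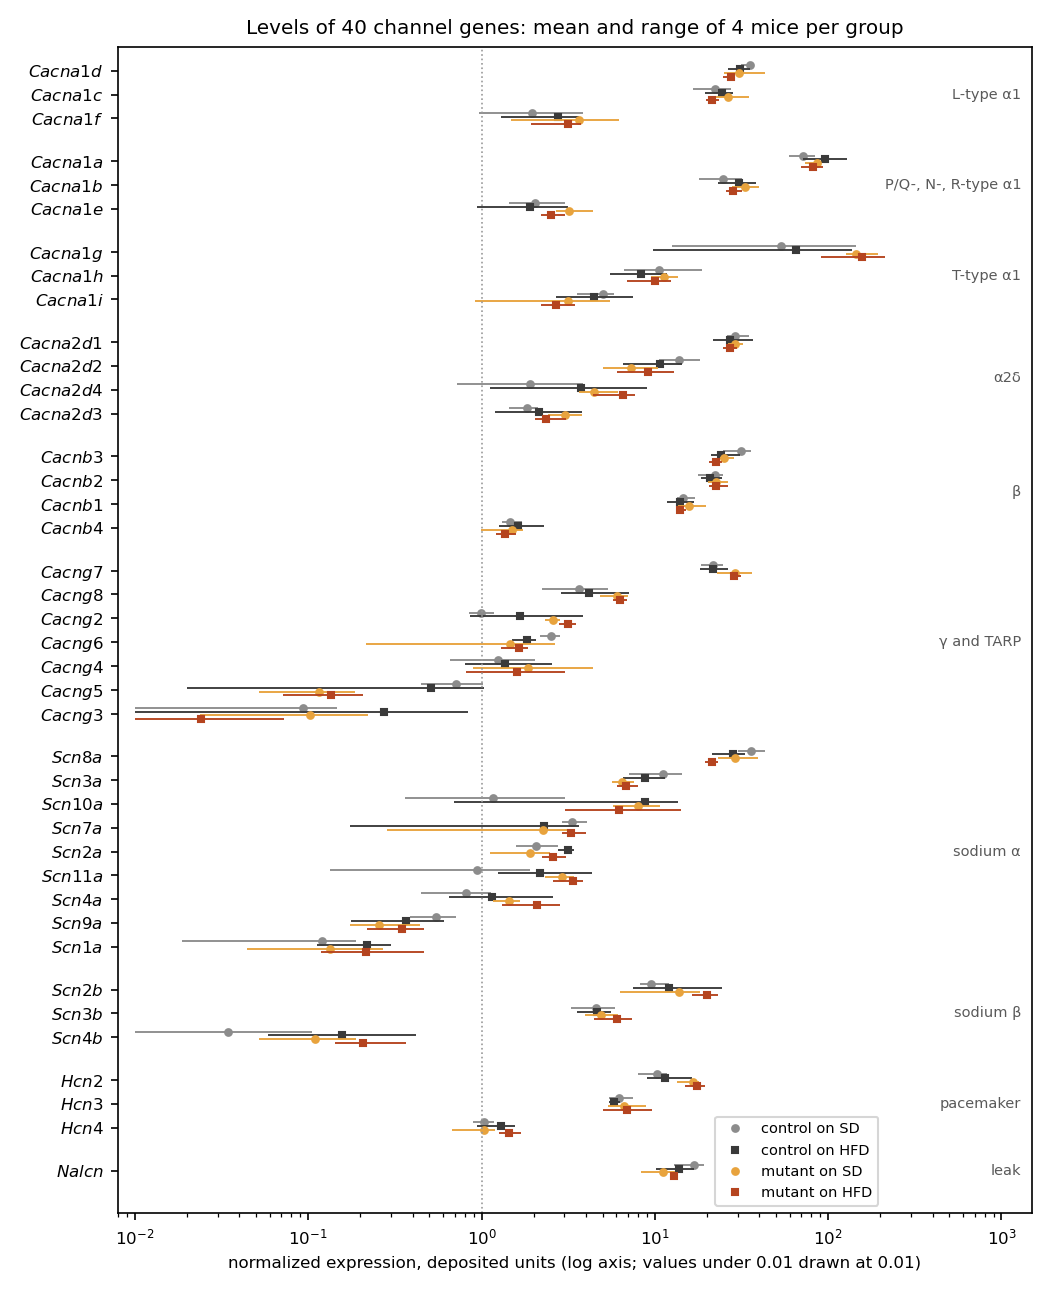
Normalized expression of 40 of the channel genes (log axis, deposited units), grouped by channel class, with the mean (symbol) and the range (line) of the 4 mice of each group. The T-type gene *Cacna1g* had the highest mean over all mice but not in controls, and its 8 controls spread over 14.7-fold. The dotted line marks the mean of 1 below which a gene was not tested.

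Expression of the channel genes spanned almost 3 orders of magnitude, and each class was led by 1 or a few genes. Of the 43, 37 averaged 1 or more across all mice and were tested. The other 6 included *Scn9a* (mean 0.380), *Cacng5* (0.369), *Scn1a* (0.172), *Scn4b* (0.127) and *Cacng3* (0.123). Of the 37, *Cacng2*, *Scn11a* and *Scn4a* passed this limit although the mean of at least 1 group was under 1. *Cacna1g*, which encodes the T-type channel Cav3.1, had the highest mean over all 16 mice (105.0) and lay at the 95.6th percentile of all genes listed. The P/Q-type gene *Cacna1a* (Cav2.1) followed with 83.9, the L-type gene *Cacna1d* (Cav1.3) with 31.2, the N-type gene *Cacna1b* (Cav2.2) with 29.2 and *Scn8a* (Nav1.6) with 28.6. The first rank of *Cacna1g* came from the mutants, with means of 144 (SD) and 157 (HFD). In controls its means were 53.7 and 64.95, below those of *Cacna1a* at 72.0 and 95.8.

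Normalized *Cacna1a* expression was 59.6, 70.8, 73.5 and 83.9 in the 4 controls on SD, 71.7, 83.8, 99.4 and 128 in controls on HFD, 73.8, 87.9, 90.2 and 91.1 in mutants on SD and 69.7, 80.8, 85.1 and 93.5 in mutants on HFD. The 4 groups overlapped, and the P385 control on HFD was highest. *Cacna1a* made up 70.3% to 73.9% of the summed P/Q-, N- and R-type expression in the 4 group means, ahead of *Cacna1b*, with the R-type gene *Cacna1e* at 1.54% to 2.60%. Normalized *Cacna1d* expression was 31.5, 35.9, 37 and 37 in the 4 controls on SD, 26.5, 29.4, 32.9 and 35.4 in controls on HFD, 25, 25.6, 29 and 43.4 in mutants on SD and 24.7, 28, 28.5 and 28.6 in mutants on HFD. *Cacna1d* supplied between 50.3% and 59.5% of L-type expression in the group means and *Cacna1c* (Cav1.2) most of the remainder. The retinal L-type gene *Cacna1f* had a mean of 2.89.

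Among auxiliary subunits, *Cacna2d1* had the highest α2δ level and *Cacnb3* the highest β level. Normalized *Cacna2d1* expression was 26.1, 27.8, 28.1 and 34.8 in the 4 controls on SD, 21.6, 23.6, 27 and 36.7 in controls on HFD, 26.5, 27.9, 29 and 32.1 in mutants on SD and 24.6, 27, 27.1 and 29.7 in mutants on HFD. All groups overlapped and their means lay between 27.1 and 29.2. Normalized *Cacnb3* expression was 24.7, 32.2, 32.6 and 35.9 in the 4 controls on SD, 21.1, 21.1, 23.1 and 31.1 in controls on HFD, 23.9, 24, 24.1 and 28.5 in mutants on SD and 20.6, 22.5, 22.7 and 24.5 in mutants on HFD. Of the β genes, *Cacnb2* had a mean of 22.1, *Cacnb1* of 14.6 and *Cacnb4* of 1.49. *Cacng7* held 69.2% to 70.2% of the summed γ and TARP expression in every group mean. Of the sodium β subunits, *Scn2b* had a mean of 13.8 and *Scn3b* of 5.04. *Hcn2* led the pacemaker genes with a mean of 14.0, above *Hcn3* with 6.39 and *Hcn4* with 1.20. *Scn8a* had the highest mean of the sodium α subunits (28.6), and *Scn3a* had 8.28. *Scn4a*, the skeletal muscle sodium channel, had a mean of 1.38, and the summed level of 4 skeletal muscle markers was 2.33 to 10.5 in all mice.

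**Figure D2:**
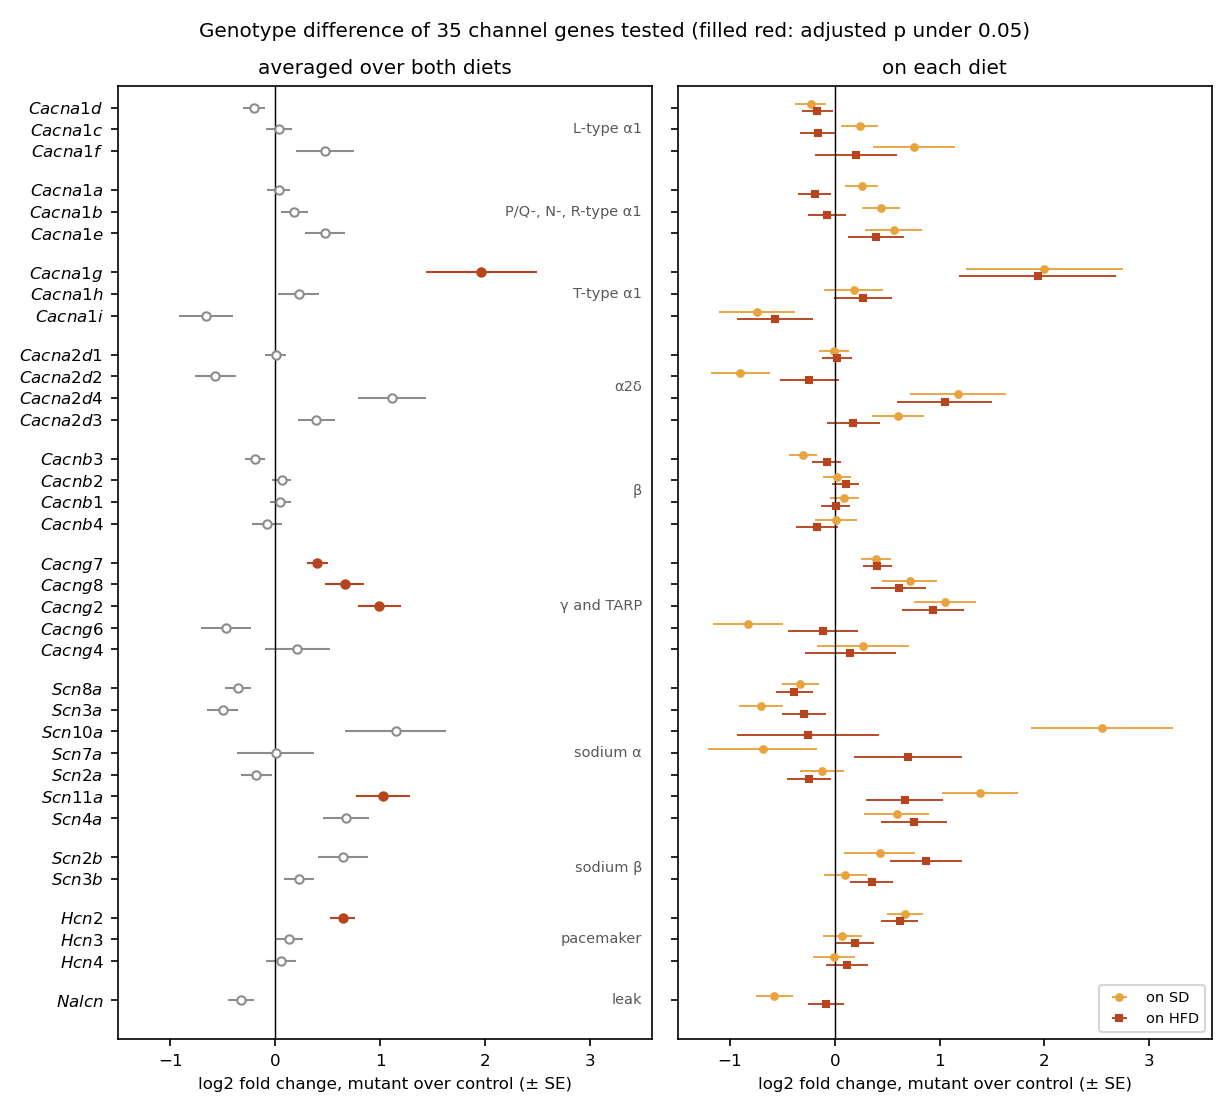
Log2 fold change of mutants over controls (x axis, with the standard error from limma) for 35 of the channel genes tested, averaged over both diets (left) and on each diet (right). In the left panel, the 6 genes in filled red passed the adjusted threshold, and all 6 lay to the right of 0.

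Which channel genes differ between genotypes was asked first with both diets averaged. *Hcn2*, *Cacng2*, *Cacng7*, *Scn11a*, *Cacna1g* and *Cacng8* were higher in mutants, and 0 of the 37 genes were called lower. The 6 calls were 16.2% of the genes tested, against 6.54% of all 14345 genes in either direction and 4.48% in the higher direction. Of the 6, *Cacng2* and *Scn11a* had a group mean under 1 and reached the limit for testing through groups where they were higher. *Cacng5*, lower in mutants, was under that limit. The share of calls and the count of 0 lower therefore depend on the filter. At an unadjusted p under 0.05 stood 19 of the 37 channel genes (14 higher, 5 lower), against 22.7% of all genes. The median log2 fold change was 0.18 over the channel genes and 0.00 over all genes. Of the called genes, 3 belonged to the 5 tested γ and TARP genes, 1 to the 8 tested sodium α genes, 1 to the 3 T-type genes and 1 to the 3 tested pacemaker genes. None of the 3 L-type, 3 P/Q-, N- and R-type, 4 α2δ, 4 β or 3 tested sodium β genes passed, nor did *Nalcn*, although the sodium β genes and all P/Q-, N- and R-type genes had positive fold changes.

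*Hcn2* (chromosome 10 of GRCm38, 79716634 to 79736108, plus strand) encodes a pacemaker channel that opens on hyperpolarization and is gated by cyclic AMP. Normalized *Hcn2* expression was 8.0, 10.3, 11 and 11.8 in the 4 controls on SD, 8.96, 9.68, 11 and 16.3 in controls on HFD, 13.4, 16.9, 17.9 and 18.1 in mutants on SD and 14.9, 17.4, 18.5 and 19.4 in mutants on HFD. Every mutant was above the 7 controls other than P392, and P392 lay within the mutant range. Averaged over both diets, the log2 fold change was 0.64 (SE 0.12, adjusted p = 0.00825, limma), or 1.56-fold on the scale of value + 0.5. An exact permutation test within diets gave a two-sided p of 0.000816. This and the permutation p-values below are for single genes, are unadjusted and use the same mice as the limma fit. *Hcn2* passed the threshold under all 12 alternative settings (adjusted p 8.7e-05 to 0.0105, limma) and without each of the 16 mice (0.000275 to 0.022). Its share of pacemaker expression averaged 57.8% in controls on SD, 60.4% in controls on HFD, 67.8% in mutants on SD and 67.3% in mutants on HFD.

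*Cacng2* (chromosome 15, 77991748 to 78120028, minus strand) encodes stargazin, the founding TARP. Normalized *Cacng2* expression was 0.846, 0.851, 1.11 and 1.18 in the 4 controls on SD, 0.863, 0.886, 1.09 and 3.86 in controls on HFD, 2.32, 2.57, 2.66 and 2.83 in mutants on SD and 2.78, 3.05, 3.25 and 3.51 in mutants on HFD. P392 had the highest value of all 16 mice, and the other 7 controls all lay below the lowest mutant. The log2 fold change was 0.99 (SE 0.21, adjusted p = 0.0124, limma), with an exact permutation p of 0.00204 (two-sided, within diets). *Cacng2* has 1 annotated transcript, and these values stood for an estimated 71.7 to 384.3 reads. It passed the threshold under all 11 alternative settings that tested it (adjusted p 1.3e-05 to 0.0166, limma) and without each of the 16 mice (up to 0.0328). The gene overlaps *A730060N03Rik* on the other strand, and whether counting used the strand is not given in the sources used here.

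*Cacng7* and *Cacng8*, TARP genes that lie 22462 bases apart on the plus strand of chromosome 7, were also higher in mutants. Normalized *Cacng7* expression was 18.6, 21.7, 22.4 and 24.6 in the 4 controls on SD, 18.1, 20.3, 22.3 and 26.4 in controls on HFD, 22.8, 28.3, 28.4 and 36.6 in mutants on SD and 27.4, 27.5, 29.1 and 31.2 in mutants on HFD. On HFD, all 4 mutants were above all 4 controls, and on SD the groups overlapped. The log2 fold change of *Cacng7* was 0.40 (SE 0.10, adjusted p = 0.0284, limma; exact permutation p = 0.00163). Normalized *Cacng8* expression was 2.22, 2.75, 4.34 and 5.37 in the 4 controls on SD, 2.86, 3.28, 3.43 and 7.12 in controls on HFD, 4.82, 6.11, 6.43 and 6.96 in mutants on SD and 5.72, 5.75, 6.69 and 6.91 in mutants on HFD. P356 and P392 were the controls that reached the mutant range. The log2 fold change of *Cacng8* was 0.66 (SE 0.19, adjusted p = 0.0447, limma; exact permutation p = 0.00653). *Cacng6*, which encodes a calcium channel γ subunit and begins 8547 bases beyond *Cacng8*, had a log2 fold change of -0.47 (SE 0.24, adjusted p = 0.25, limma). Over 12 alternative settings the adjusted p (limma) of *Cacng7* was 0.00145 to 0.0504 and that of *Cacng8* 0.00107 to 0.0551, and they passed in 6 and 3 of the 16 fits without 1 mouse. *Cacng7* shares its span with *Gm44256* on the same strand and *Cacng8* with *Gm44151* on the other, so reads of these genes may not be separable.

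*Scn11a* (chromosome 9, 119753759 to 119825456, minus strand) encodes Nav1.9, a tetrodotoxin-resistant channel best known from pain-sensing neurons. Normalized *Scn11a* expression was 0.133, 0.728, 1.01 and 1.89 in the 4 controls on SD, 1.24, 1.25, 1.88 and 4.32 in controls on HFD, 2.33, 2.86, 3.02 and 3.42 in mutants on SD and 2.6, 3.29, 3.8 and 3.88 in mutants on HFD. The 7 controls other than P392 were all below the lowest mutant, while P392 was the highest of all. The log2 fold change was 1.03 (SE 0.26, adjusted p = 0.0288, limma; exact permutation p = 0.00367). Over 11 alternative settings its adjusted p (limma) was 0.000571 to 0.042, and it passed in 7 of the 16 fits without 1 mouse. *Cacna1g* (chromosome 11, 94408391 to 94474198, minus strand) had the largest fold change of the 6. Normalized *Cacna1g* expression was 12.5, 24.3, 34.2 and 144 in the 4 controls on SD, 9.81, 16.9, 95.1 and 138 in controls on HFD, 127, 127, 129.7 and 194 in mutants on SD and 90.8, 147, 178 and 211 in mutants on HFD. The mutants lay between 90.8 and 211, and controls fell into a low set of 5 mice at 9.81 to 34.2 and a high set of P385, P392 and P356 at 95.1 to 144. Its log2 fold change was 1.97 (SE 0.53, adjusted p = 0.0387, limma; exact permutation p = 0.00776), or 3.91-fold. Its adjusted p (limma) was 0.000935 to 0.0474 over 12 alternative settings, and it passed in 4 of the 16 fits without 1 mouse. The coefficient of variation of *Cacna1g* was 113% in controls on SD and 95.7% in controls on HFD, against 22.7% and 32.7% in mutants.

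**Figure D3:**
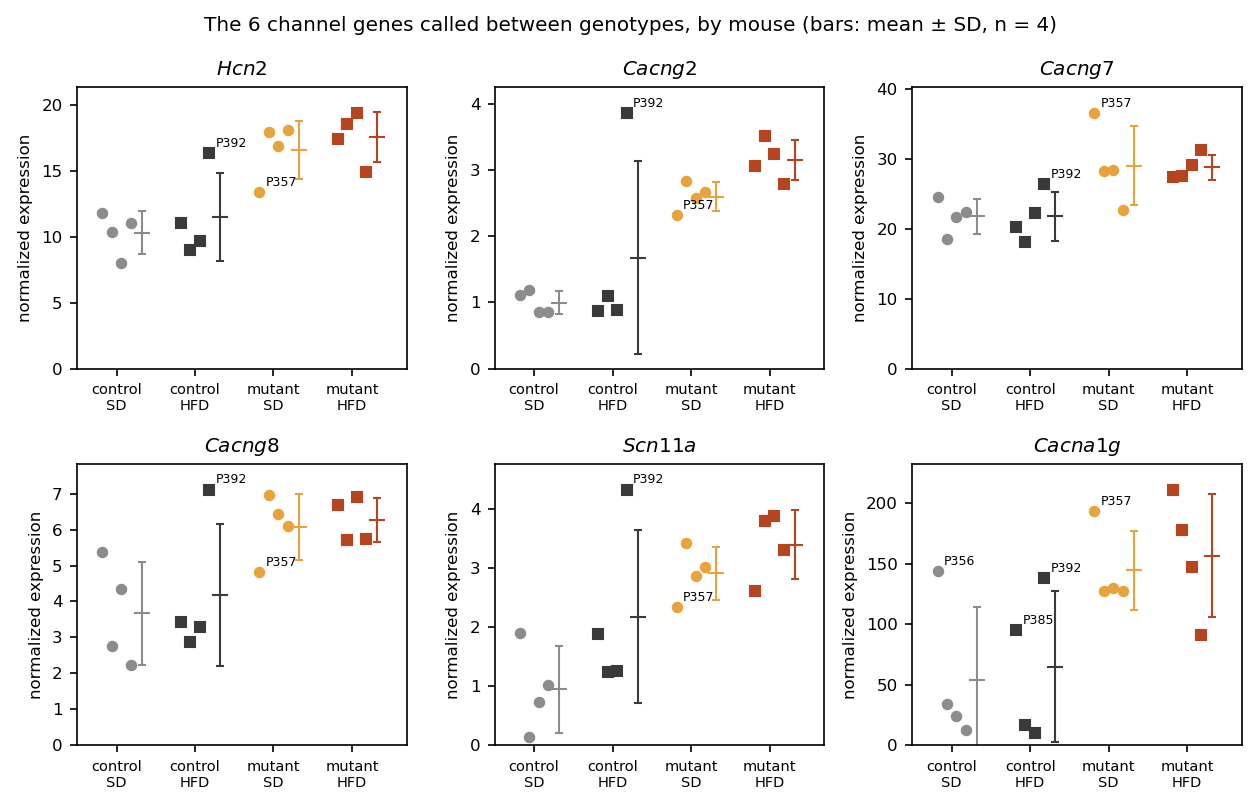
Normalized expression of the 6 called genes in each mouse (points) with the mean ± SD of the 4 mice of each group (bars, cut at 0), axes starting at 0. P392, a control on HFD, lay within or above the mutant range in each of the 6 panels, and P356 and P385 did so for *Cacna1g*.

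Because mutants lack an oestrogen receptor in part of their cells, the stretch before the start of the called genes was read for the oestrogen response element. RefSeq promoters (GRCm38.p6) were found for 32 of the 43 genes, but not for *Cacna1g*. Shown are the 250 bases before the RefSeq start of *Hcn2*, *Cacng7* and *Scn11a*, 5′ to 3′ along the gene. The half-site GGTCA or its reverse complement TGACC is in capitals. Each stretch shown lies outside the annotated span of its gene, and those of *Cacng2* and *Cacng8* are not shown. The stretches shown are chr10:79716384-79716633 (plus strand), chr7:3332575-3332824 (plus) and chr9:119825457-119825706 (minus).
Hcn2: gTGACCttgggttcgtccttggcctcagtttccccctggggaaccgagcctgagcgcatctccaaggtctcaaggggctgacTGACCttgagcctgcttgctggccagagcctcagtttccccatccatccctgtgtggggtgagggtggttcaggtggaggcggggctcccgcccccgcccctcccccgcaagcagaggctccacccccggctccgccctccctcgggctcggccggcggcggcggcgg
Cacng7: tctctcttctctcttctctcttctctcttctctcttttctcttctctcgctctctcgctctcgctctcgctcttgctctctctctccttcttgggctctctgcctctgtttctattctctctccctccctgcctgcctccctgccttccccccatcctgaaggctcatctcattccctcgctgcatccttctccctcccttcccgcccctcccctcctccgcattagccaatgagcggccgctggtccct
Scn11a: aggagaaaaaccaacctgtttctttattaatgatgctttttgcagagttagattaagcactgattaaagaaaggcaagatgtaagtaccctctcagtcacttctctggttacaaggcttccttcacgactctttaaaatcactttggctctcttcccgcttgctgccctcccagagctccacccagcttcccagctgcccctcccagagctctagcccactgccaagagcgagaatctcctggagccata
The half-site occurred 2 times before *Hcn2* and 0 times before *Cacng2*, *Cacng7* and *Scn11a*. On either strand it was found in 13 of the 32 channel genes with a promoter, or 40.6%, among them *Cacng8*, and in 37.8% of 12626 protein-coding genes listed. The full element GGTCANNNTGACC, which contains the half-site, was found in 0 of the 32 and in 0.0238% of all. The GC content of the stretches was 70.4% for *Hcn2*, 58.0% for *Cacng7* and 48.0% for *Scn11a*. A match of letters is not a binding site.

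The number of calls depended on single mice. Without P392, 15 of the 37 channel genes passed in the averaged comparison, against 13.5% of all genes. Without P357 and P392 together, 17 passed, against 18.6% of all genes. Without P356, a control on SD, 9 passed, against 9.84% of all genes. Only 2 passed without P341, P359, P382, P387, P390 or P391 (3.07% to 3.95% of all genes), and 3 without P358, P381, P383 or P384 (3.53% to 4.64% of all genes). *Hcn2* and *Cacng2* were the genes that passed each time. P392 lay outside the range of the other 7 controls in 22 of the 37 channel genes and in 40.8% of all genes tested. P357 lay outside the range of the other 7 mutants in 25 of the 37 and in 63.4% of all genes tested, and each of the other 14 mice did so in 3 to 14 of the 37. No channel gene tested separated all 8 mutants from all 8 controls, which 0.432% of all genes did. Against the 7 controls other than P392, mutants were all higher in *Hcn2*, *Cacng2*, *Scn11a* and *Scn4a*, 4 of the 37, whereas 3.79% of all genes separated these mice. Ranges without P392, which keep P357, were chosen after values were seen, so they are a description and no test. The labels give each mouse a number and name no ranges. The numbers were split here into 2 ranges, P339 to P359 and P381 to P392, and all controls on HFD belong to the upper one. Within each range, all 6 called genes were higher in mutants, by 0.46 to 1.96 on the log2 scale with 3 mutants and 3 controls and by 0.35 to 1.97 with 5 and 5. These are the same mice that gave the calls, and diets are unevenly mixed within each range. The values therefore describe the ranges and do not test them.

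On SD alone, 0 of the 37 channel genes passed the adjusted threshold, whereas 1.84% of all genes did. At an unadjusted p under 0.05 stood 16 of them, 11 higher and 5 lower in mutants, against 19.9% of all genes. Both groups were fully apart in 7 of the 37, against 10.6% of all genes. *Hcn2*, *Cacng2*, *Scn10a*, *Scn11a*, *Scn4a* and *Cacna2d3* were higher in all 4 mutants and *Cacna2d2* was lower. The smallest p-values belonged to *Hcn2* (log2 fold change 0.67, SE 0.17, adjusted p = 0.0583, limma), *Scn11a* (1.39, SE 0.37, adjusted p = 0.0607) and *Scn10a* (2.55, SE 0.68, adjusted p = 0.0611). Over the alternative settings these p-values ranged from 0.00293 to 0.12, 0.0042 to 0.135 and 0.0144 to 0.144 (limma). Exact permutation tests add no evidence here. With all 4 mutants above all 4 controls, these 3 genes could only give a two-sided p of 0.0286, the smallest that 4 mice against 4 allow. Without P392, a mouse that is in neither of these groups but enters the common estimate of the spread, 5 channel genes passed on SD (5.42% of all genes), and without P356 7 passed (5.76% of all genes). *Scn10a* passed without P391, which is also outside this comparison, and in 3 of the 16 fits without 1 mouse in all. Without P357 and P392, 8 passed, against 6.7% of all genes.

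On HFD, 0 of the 37 channel genes and 0% of all genes passed. At an unadjusted p under 0.05 stood 9 of the 37 (8 higher, 1 lower), against 10.2% of all genes. *Cacng7* was the only one of the 37 that separated the groups, against 5.3% of all genes. *Hcn2*, *Cacng2* and *Cacng7* had the smallest p-values, with log2 fold changes of 0.62 (SE 0.17, adjusted p = 0.25, limma), 0.94 (SE 0.29, adjusted p = 0.277) and 0.41 (SE 0.14, adjusted p = 0.335). The fold changes of *Hcn2*, *Cacng2*, *Cacng7*, *Cacng8* and *Cacna1g* on HFD stood beside those on SD as 0.62 and 0.67, 0.94 and 1.05, 0.41 and 0.39, 0.61 and 0.71, and 1.94 and 2.0 (HFD first), and those of *Scn11a* were 0.67 and 1.39. The averaged comparison uses the same mice as both of these. Without P392, *Hcn2*, *Cacng2*, *Cacng8*, *Scn2b*, *Scn4a* and *Cacna2d4* passed on HFD, against 4.55% of all genes. Without P357 and P392, 8 passed, against 7.42%.

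Normalized *Scn2b* expression was 8.24, 8.43, 9.2 and 12.1 in the 4 controls on SD, 7.52, 7.67, 8.73 and 24.3 in controls on HFD, 6.28, 14.9, 15.6 and 18.1 in mutants on SD and 16.4, 19.2, 20.8 and 23.1 in mutants on HFD. *Scn2b* encodes a β subunit that is linked to sodium channel α subunits by a disulfide bond. P392 was highest and P357 lowest of all mice. The averaged log2 fold change of *Scn2b* was 0.65 (SE 0.24, adjusted p = 0.12, limma). *Cacna2d4*, named after its values were seen, had an averaged log2 fold change of 1.11 (SE 0.32, adjusted p = 0.0515, limma), just outside the threshold.

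No channel gene tested was called lower in mutants, but several had their lowest values there. *Nalcn* carries the background sodium leak that keeps excitable cells near threshold. Normalized *Nalcn* expression was 12.8, 17, 18.6 and 19.1 in the 4 controls on SD, 10.1, 12.5, 16.1 and 16.7 in controls on HFD, 8.29, 10.8, 12.5 and 13.1 in mutants on SD and 12.3, 12.6, 12.8 and 13.5 in mutants on HFD. The averaged log2 fold change was -0.33 (SE 0.12, adjusted p = 0.124, limma, and unadjusted exact permutation p = 0.0355), and on SD it was -0.58 (SE 0.17, adjusted p = 0.0926). Normalized *Scn8a* expression was 30.4, 32.9, 36.8 and 43.1 in the 4 controls on SD, 21.4, 26.1, 33 and 33.2 in controls on HFD, 23.2, 23.4, 29.4 and 39.4 in mutants on SD and 19.5, 20.3, 22.2 and 23.2 in mutants on HFD. Its averaged log2 fold change was -0.36 (SE 0.12, adjusted p = 0.0969, limma, and unadjusted exact permutation p = 0.0176). Mutants on HFD had the lowest group mean of *Scn8a*, 21.3 ± 1.7 (SD, n = 4), and controls on SD the highest, 35.8 ± 5.54 (SD, n = 4). *Scn3a* (Nav1.3, chosen after its values were seen) had an averaged log2 fold change of -0.50 (SE 0.15, adjusted p = 0.0556, limma), *Cacna2d2* of -0.57 (SE 0.20, adjusted p = 0.0964) and the T-type gene *Cacna1i* of -0.66 (SE 0.26, adjusted p = 0.142). Without P392, *Nalcn*, *Scn8a*, *Scn3a* and *Cacna2d2* were among the 15 genes that passed.

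*Cacng5*, a TARP gene under the limit for testing and chosen after its values were seen, showed a wide gap between genotypes. Normalized *Cacng5* expression was 0.45, 0.495, 0.885 and 1.02 in the 4 controls on SD, 0.0199, 0.369, 0.637 and 1.03 in controls on HFD, 0.0523, 0.0902, 0.132 and 0.187 in mutants on SD and 0.0714, 0.0895, 0.173 and 0.206 in mutants on HFD. The 7 controls other than P392 were all above the highest mutant, and P392 had the lowest value of all. When genes with a mean of at least 0.1 were tested, its averaged log2 fold change was -0.76 (adjusted p = 0.0267, limma), which understates the ratio of values this low. The other 5 genes under the limit did not pass in that fit.

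**Figure D4:**
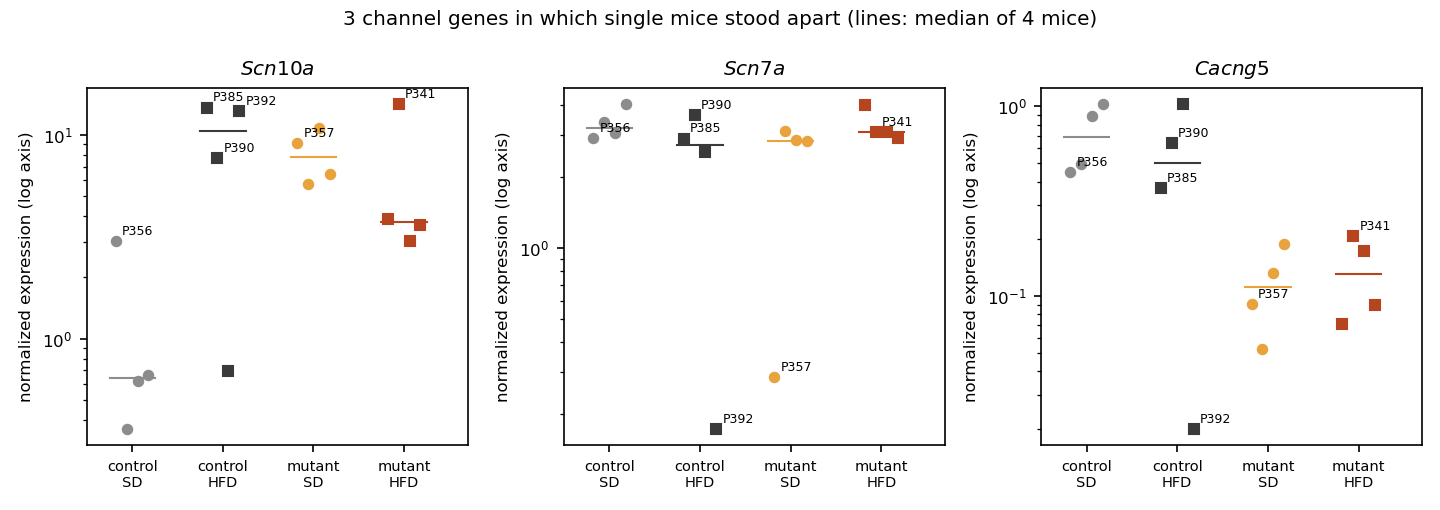
Normalized expression of *Scn10a*, *Scn7a* and *Cacng5* in each mouse (log axis), with the median of each group as a line and some mice named. *Scn10a* was high in the controls P356, P385, P390 and P392, and *Scn7a* was low in P357, a mutant, and P392, a control.

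The tetrodotoxin-resistant sodium channel genes *Scn10a* and *Scn11a* are neighbours on chromosome 9, with 34437 bases between them. *Scn10a* encodes Nav1.8, another channel of pain-sensing neurons. Normalized *Scn10a* expression was 0.362, 0.623, 0.664 and 3.02 in the 4 controls on SD, 0.694, 7.71, 13.1 and 13.6 in controls on HFD, 5.76, 6.42, 9.12 and 10.8 in mutants on SD and 3.02, 3.62, 3.87 and 14.2 in mutants on HFD. The high controls were the P356, P385 and P392 of *Cacna1g*, joined by P390. Over the 8 controls the highest value was 37.7 times the lowest for *Scn10a*, 32.6 times for *Scn11a* and 14.7 times for *Cacna1g*.

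*Scn7a* encodes Nax, a sodium-sensing channel of glial and neurohypophysial cells. It was 0.173 in P392 and 0.286 in P357, whereas the remaining 14 mice had 2.54 to 4.05. By the read size, these values stood for an estimated 17.9 and 33 reads in those mice and 309.2 to 556.2 in the others. The same 2 mice had the low lobe markers given above, and the part of lobe content in *Scn7a* was not tested. The log2 fold change of *Scn7a* between genotypes was -0.69 on SD (adjusted p = 0.469, limma), 0.70 on HFD (adjusted p = 0.700) and 0.00 averaged (SE 0.37, adjusted p = 0.998). Without P357 and P392 these values were -0.16, 0.10 and -0.03 (adjusted p = 0.591, 0.767 and 0.893, limma). The averaged value was 0.27 without P357 alone and -0.29 without P392 alone.

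Diet was compared within each genotype. In mutants, 0 of the 37 channel genes and 0% of all genes passed, and 1 of the 37 (*Scn8a*) stood at an unadjusted p under 0.05, against 5% of all genes. *Scn8a* was lower on HFD by a log2 fold change of -0.40 (SE 0.17, adjusted p = 0.813, limma), followed by *Scn2b* with 0.60 and *Scn2a* with 0.39 (both with an adjusted p of 0.813). *Hcn4* was the only channel gene tested whose ranges did not overlap between diets in mutants, against 3.31% of all genes. In controls, again 0 of the 37 and 0% of all genes passed, and 5 of the 37 stood at an unadjusted p under 0.05, against 4.13% of all genes. They were *Scn10a* (2.22, SE 0.68), *Cacnb3* (-0.38, SE 0.14), *Scn2a* (0.52, SE 0.21), *Scn11a* (0.91, SE 0.37) and *Cacna1a* (0.39, SE 0.16), each with an adjusted p of 0.998 (limma). Normalized *Scn2a* expression was 1.58, 1.8, 2.17 and 2.75 in the 4 controls on SD, 2.76, 3.11, 3.3 and 3.42 in controls on HFD, 1.12, 1.7, 2.29 and 2.49 in mutants on SD and 2.25, 2.32, 2.7 and 3.07 in mutants on HFD. Controls on HFD were all above controls on SD for *Scn2a* and all below them for *Cacng6*, which made 2 of 37 against 2.61% of all genes. *Cacng6* was chosen after its values were seen.

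Whether diet altered the genotype difference was asked by the interaction. It passed for 0 of the 37 channel genes and 0% of all genes, and for 1 of the 37 at an unadjusted p under 0.05, against 4.2% of all genes. That gene was *Scn10a*, with an interaction of -2.81 on the log2 scale (SE 0.96, adjusted p = 0.924, limma). The interactions of *Cacna1a* and *Nalcn* were -0.45 (SE 0.22) and 0.49 (SE 0.25), each with an adjusted p of 0.924. The count of 0 calls in both diet comparisons and in the interaction held under every alternative setting and without each single mouse.

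**Figure D5:**
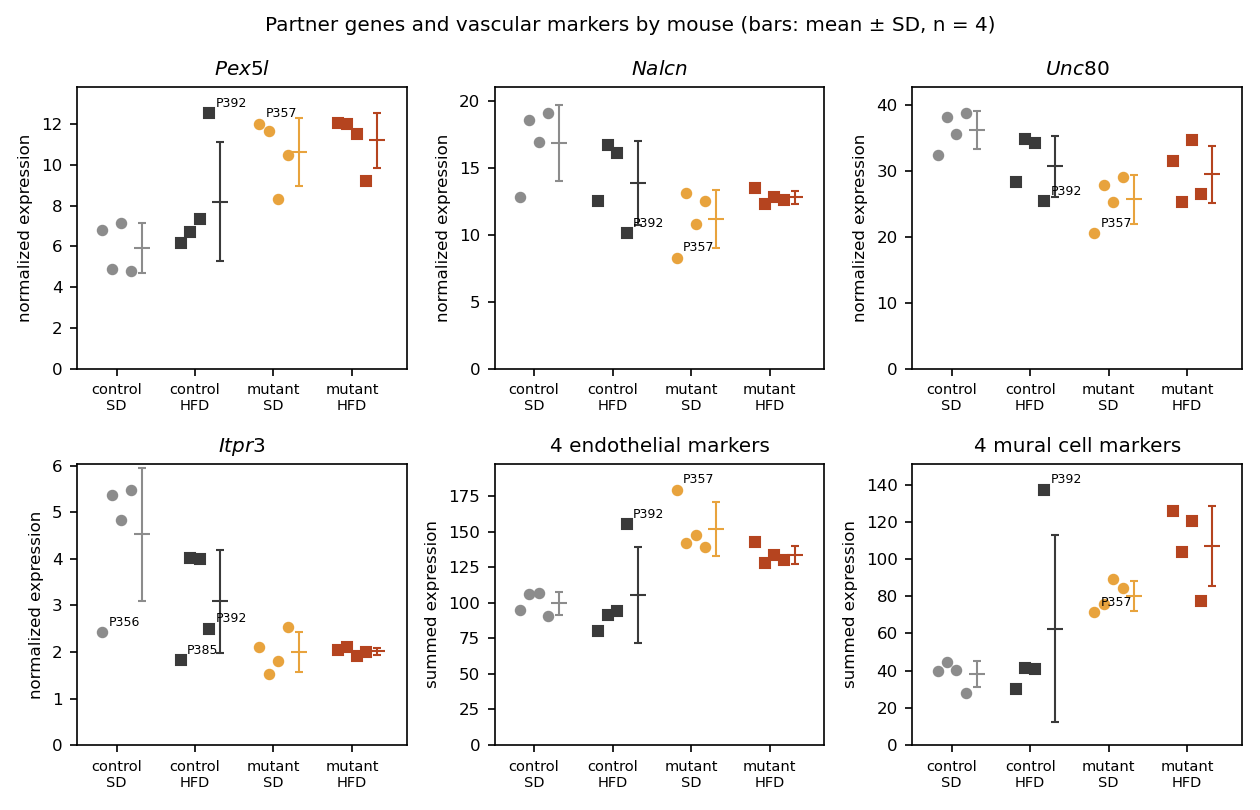
Normalized expression of the partner genes *Pex5l*, *Unc80* and *Itpr3* and of *Nalcn* in each mouse, and the summed expression of 4 endothelial and 4 mural cell markers, with the mean ± SD of 4 mice (bars). *Pex5l* and both vascular sums were higher in mutants and in P392 than in the other 7 controls.

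Of 40 partner and calcium handling genes listed, 37 were tested, and 1 was called higher and 1 lower with both diets averaged, 5.41% against 6.54% of all genes. The gene called higher was *Pex5l*, which encodes TRIP8b, the auxiliary subunit that traffics HCN channels. Normalized *Pex5l* expression was 4.81, 4.91, 6.81 and 7.14 in the 4 controls on SD, 6.19, 6.7, 7.38 and 12.6 in controls on HFD, 8.33, 10.5, 11.7 and 12 in mutants on SD and 9.22, 11.6, 12 and 12.1 in mutants on HFD. Its averaged log2 fold change was 0.64 (SE 0.14, adjusted p = 0.0178, limma). All mutants were above the 7 controls other than P392, the order also seen for *Hcn2*. The gene called lower was *Itpr3*, an IP3 receptor that releases stored calcium. Normalized *Itpr3* expression was 2.42, 4.84, 5.37 and 5.49 in the 4 controls on SD, 1.82, 2.5, 3.99 and 4.02 in controls on HFD, 1.53, 1.81, 2.11 and 2.54 in mutants on SD and 1.92, 1.99, 2.04 and 2.1 in mutants on HFD. Its averaged log2 fold change was -0.71 (SE 0.18, adjusted p = 0.0295, limma), and the controls with low values were P356, P385 and P392. In the NALCN complex, *Unc80* had -0.28 (SE 0.10, adjusted p = 0.101, limma) and 0 of 3 genes were called. The 3 did not share a direction. Group means of *Unc79* were higher in mutants, at 24.07 (controls) and 27.03 (mutants) on SD and 21.99 and 25.71 on HFD. Those of *Fam155a* were lower in mutants on both diets. Of the 6 sodium channel partners 0 were called, and *Fgf13*, whose product binds sodium channel tails, had the smallest p of that list with 0.81 (SE 0.27, adjusted p = 0.0865, limma). *Fgf14* of the same list, named after its values were seen, went the other way. Its group means were 9.597 (controls) and 4.49 (mutants) on SD and 6.49 and 4.75 on HFD. Of the 9 tested calcium channel partners 0 were called, with the smallest p for *Cabp1*, a calcium-binding regulator (0.50, SE 0.18, adjusted p = 0.103, limma). Of the 5 store-operated entry genes 0 were called, and on either single diet 0 of the 37 partner genes were called.

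Markers of other cell types differed between the genotypes beside these results. In bulk tissue a change in the number of cells of a type and a change in RNA per cell cannot be told apart. The summed level of 4 endothelial markers was 90.5 to 107 (controls, SD), 80.1 to 155 (controls, HFD), 139 to 179.5 (mutants, SD) and 128 to 142 (mutants, HFD), and 3 of the 4 (*Pecam1*, *Cdh5* and *Plvap*) were called higher in mutants with both diets averaged. The summed level of 4 pericyte and smooth muscle markers was 27.8 to 44.5 (controls, SD), 30.0 to 137 (controls, HFD), 71.6 to 89.1 (mutants, SD) and 77.6 to 126 (mutants, HFD), and 2 of the 4 (*Rgs5* and *Myh11*) were called higher. P392 gave the upper end in controls for both lists (155 and 137), and without it controls reached 107 and 44.5. Of 4 immune markers, 0 were called, and their sum was 16.2 to 33.7 in the 7 controls other than P392, 47.5 in P392 and 26.8 to 75.9 in mutants. Of 3 stem and folliculostellate markers, 2 were tested and 1 was called higher (*Aldh1a2*), with sums of 39.2 to 47.6 in those 7 controls, 56.6 in P392 and 44.6 to 83.4 in mutants. Of 4 posterior lobe markers, 1 was called higher, *Col25a1* (0.89, adjusted p = 0.00471, limma), while *Rax* and *Nkx2-1* had log2 fold changes of -0.37 (adjusted p = 0.613) and -0.10 (adjusted p = 0.863). The sum of the 4, in which *Col25a1* had the highest level, was 11.5 to 15.9 in the 7 controls, 15.9 in P392 and 14.3 to 27.3 in mutants. Of 4 melanotroph markers 0 were called, with sums of 11369 to 42298 in the 7 controls, 3484 in P392, 1666 in P357 and up to 22208 in the other mutants. The magnocellular neuron markers *Avp* and *Oxt* summed to 2.10 in P392 and 0.792 in P357 and to at least 18.5 in every other mouse. None of the 2 lactotroph, 2 somatotroph, 2 corticotroph, 2 thyrotroph, 3 gonadotroph or 4 Schwann cell and oligodendrocyte markers was called. The part of cell composition in the 6 called channel genes was not tested.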

How the data were processed

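Pituitary RNA of 16 females (4 per group) was sequenced as 1 library per mouse. The deposited values are a normalized signal per gene, which the authors made with Kallisto and Sleuth on mm10 (versions not given in the sources used here). They are no counts, and since values of genes with more than 1 transcript do not resolve into whole reads, a count test was not used. The read size was estimated from genes with 1 transcript of at least 1500 bases, with a smallest step of 0.04 chosen after values had been seen. Because the step was fitted to the same values, the share near whole reads is no independent check of it. A finer step scored as well in some libraries, so the estimated reads rest on this choice.

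After adding 0.5 and taking log2, limma 3.58.1 (R 4.3.3) fitted 1 mean per group with a trended empirical Bayes variance to the 14345 genes averaging 1 or more. Fold changes on this scale understate changes of low genes. P-values were adjusted within each comparison by Benjamini and Hochberg's method, with a threshold of 0.05. Exact two-sided permutation tests compared single genes, within diets for the averaged comparison (4900 arrangements). Their p-values were not adjusted for the number of genes and are no independent support for the limma results. The fit was checked on simulated data. Groups came from the labels, in which each library carries its own animal number, and p-values measure the spread between these libraries. The depth of the multi-transcript genes is unknown.

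The channel genes, partner genes and markers were chosen with earlier results of these data known. Named genes were the called genes, those with the smallest p in each comparison and the leading gene of each class, and 15 were given in every mouse. Some members that entered the fit and the counts are not reported here by name. All other channel genes named, and the ranges without P392, were chosen after their values were seen. Alternatives covered the pseudocount, the filter, scaling, variance trend, array weights, covariates and mice left out. Promoters were from RefSeq (GRCm38.p6), and motifs were searched on both strands. Python 3.11.15 was used for tables.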

Additional observations from a re-analysis of the deposited data

Results flagged for a closer look

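In groups of 4 mice, 9 values of the named channel genes lay far from the other 3 mice of their group by Dixon's test at the 95% level, among 60 groups searched, in which chance alone gives about 3. In P392, a control on HFD, *Cacng2* was 3.86 against 0.863 to 1.09 in the other 3 mice, *Cacng8* was 7.12 against 2.86 to 3.43, and *Scn2b* was 24.3 against 7.52 to 8.73. In P356, a control on SD, *Cacna1g* was 144 against 12.5 to 34.2 and *Scn10a* was 3.02 against 0.362 to 0.664. In P357, a mutant on SD, *Cacna1g* was 194 against 127 to 129.7 and *Cacnb3* was 28.5 against 23.9 to 24.1. Among mutants on HFD, *Scn10a* was 14.2 in P341 against 3.02 to 3.87 and *Cacna1d* was 24.7 in P387 against 28.0 to 28.6.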

How the results depend on the processing

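The counts of channel genes called moved with several settings, and the share of all genes called in the same fit follows each. On SD, where 0 were called, median scaling gave 1 (1.93% of all genes), quantile normalization 1 (1.91%), the 8 mice alone 2 (2.17%), array weights 15 (14.1%) and the fit without P357 and P392 8 (6.7%), and leaving out 1 mouse gave 0 to 7 (0.23% to 5.76%). On HFD, where 0 were called, array weights gave 9 (7.45%), the fit without P357 and P392 gave 8 (7.42%), and leaving out 1 mouse gave 0 to 6 (0% to 4.55%). With both diets averaged, where 6 were called, a filter at a mean of 5 gave 3 (5.65%), array weights 21 (25.2%), the lobe score as a covariate 10 (9.07%) and the fit without P357 and P392 17 (18.6%), and leaving out 1 mouse gave 2 to 15 (3.07% to 13.5%). The filter at 5 removed *Cacng2* and *Scn11a* from the genes tested. For the other settings the cause was not tested. *Cacng8* missed the threshold under 4 of 12 settings and *Cacng7* under 1. Direction under the alternatives was followed for the genes with the smallest p-values in each comparison, and none of these changed sign. For *Scn7a* the averaged value changed sign without P392. No paired analysis was possible because mouse numbers are not shared between groups. The depth of most genes is unknown, which limits what the low values can show.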
